A study of Mus musculus with 4 samples.

Results

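Neurotrophin genes and the genes of their receptors were examined in mouse engineered neural tissue, in which neural stem cells are grown inside a gel. The group was set by symbol and holds 8 of the 23874 genes of the count table: the ligand genes Bdnf, Ntf3 and Gdnf, the receptor tyrosine kinase genes Ntrk2 and Ntrk3, the p75 receptor gene Ngfr, the sortilin gene Sort1 and the GDNF co-receptor gene Gfra1. Neurospheres were mixed into Matrigel, a basement membrane extract, and fed BNb medium with N2, B27 and 20 ng/ml basic fibroblast growth factor (bFGF), a mitogen of neural progenitors; the labels give this for both groups. The EF group received electrical stimulation at 150 mV/mm, given daily for 30 min over 3 days, and was kept in culture for 7 days afterwards. The noEF group received no field, and its samples are likewise titled day 7. The labels name no mouse strain, age or cell line. The series design calls the control a suspension of neural stem cells, whereas the sample labels call both groups engineered tissue (ENT), and the sample labels were followed. Each group had 2 libraries of polyadenylated RNA, although 3 replicates per group are stated, and the labels do not state whether a library stands for a culture of its own. The p-values thus speak only of the spread among libraries, which may be technical.

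Neurotrophins are small secreted dimers that are made as longer precursors. BDNF binds the kinase receptor TrkB (Ntrk2), NT-3 (Ntf3) binds TrkC (Ntrk3), and each mature neurotrophin also binds p75 (Ngfr), whereas the uncleaved precursors bind p75 together with sortilin. GDNF is not related to them in sequence: it binds GFRα1 (Gfra1), which passes the signal to the kinase Ret or to the adhesion molecule NCAM. In the nervous system these factors act on the survival of neurons, the growth of axons and the strength of synapses. Ntrk2 and Ntrk3 are also transcribed in glia, where Ntrk2 largely yields a shortened TrkB without a kinase domain.

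The counts were given per gene and do not separate transcripts of one gene. This matters most for Bdnf, whose 7 windows in the RefSeq promoter table (GRCm38.p6) stand for 7 start sites, and for Ntrk2, for which GENCODE M21 lists 7 protein-coding transcripts. The third of the Bdnf windows in the direction of transcription (chr2:109692186-109692435, plus strand) is shown because it holds the only cAMP response element half-site among the 7, the type of sequence that the activity-regulated factor CREB binds. The window upstream of Ngfr (chr11:95587736-95587948, minus strand) is shown because Ngfr had the largest difference between the groups. Both run 5′ to 3′. The Bdnf window ends at the RefSeq start, and the Ngfr window ends where the first exon begins in GENCODE, which lies 37 bases before the RefSeq start. Capitals mark matches on either strand to TGACGTCA (the full cAMP response element), TGACG (its half-site, which the full element also holds), CACGTG (an E-box) or GGGCGG (a GC box).
Bdnf, window 3: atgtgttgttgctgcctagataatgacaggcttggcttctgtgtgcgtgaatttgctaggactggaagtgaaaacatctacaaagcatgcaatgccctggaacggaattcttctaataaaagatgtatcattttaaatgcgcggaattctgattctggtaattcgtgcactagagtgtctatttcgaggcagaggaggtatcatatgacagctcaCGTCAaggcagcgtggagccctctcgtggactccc
Ngfr: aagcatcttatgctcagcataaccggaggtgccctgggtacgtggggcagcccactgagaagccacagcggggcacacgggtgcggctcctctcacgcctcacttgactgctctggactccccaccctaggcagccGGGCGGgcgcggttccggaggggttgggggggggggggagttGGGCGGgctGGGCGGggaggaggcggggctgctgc
The capitals in the Bdnf window are the half-site read from the other strand, and the 3 in the Ngfr window are GC boxes. Of 32851 windows of 250 bases before a start, 17.8% held the half-site, 1.55% the full element, 6.02% the E-box and 32.7% the GC box. Windows were listed for 6 of the 8 genes, all but Ntrk3 and Sort1. These matches describe letters only, and the counts do not show from which Bdnf start the transcripts came.

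Total counts were 33748880 to 34554537 per library, so that 1 count was worth 0.0280 to 0.0307 CPM (counts scaled to library size by the TMM method). The tissue carried the neural stem cell genes Nes at 115 to 135 CPM, Sox2 at 291 to 380 CPM and Vim at 2176 to 2616 CPM in every library. In the same list Fabp7 was at 2281 to 3553 CPM, Pax6 at 26.0 to 31.0 CPM and Hes5 at 4.79 to 7.1 CPM. In a list of 6 neuronal genes Elavl3 was highest, at 27.6 to 33.2 CPM. Syt1 had a mean of 17.9 CPM over all libraries. Tubb3 was at 10.7 to 12.5 CPM, Snap25 at 3.28 to 5.19 CPM and Rbfox3 at 0.672 to 1.86 CPM. Stmn2 had 0 counts. Olig1, at 1950 to 2302 CPM, stood far above the rest of a list of 6 oligodendrocyte lineage genes. Cspg4 was at 70.7 to 82.2 CPM and Pdgfra at 25.7 to 44.9 CPM. Mbp was at 13.2 to 18.2 CPM, Sox10 at 6.02 to 11.8 CPM, and Mog had 0 to 3 counts. Of 6 microglial genes 5 had 0 counts, and 6 endothelial genes summed to 0.743 to 2.49 CPM. Differences were tested with edgeR's quasi-likelihood test over all 14263 genes that passed a filter on low counts, and a gene was called at a Benjamini-Hochberg adjusted p under 0.05. By that rule 8.82% of the tested genes were called, 3.83% higher and 4.99% lower in EF.

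None of the 8 genes was called in either direction, against that background of 8.82%. The fitted differences of the ligand gene Bdnf, the kinase receptor genes Ntrk2 and Ntrk3, Sort1 and Gfra1 lay between -0.16 and 0.12 on the log2 scale. Ngfr was 2.18-fold higher in EF in the fit without passing the test. 6 of the 8 passed the filter and were tested, and Ntf3 and Gdnf had 0 counts in all 4 libraries. At an unadjusted p under 0.05 edgeR gave 1 gene (Ngfr), DESeq2 gave 1 (Ntrk2) and limma-voom gave 2 (Ngfr and Ntrk2), and DESeq2 and limma-voom also called 0 after adjustment, where DESeq2 gave no adjusted p for Ngfr. The libraries of the groups did not overlap in 5 of the 6 tested genes, all but Gfra1, but this was so for 54.4% of all tested genes. The median log2 fold change (EF minus noEF) of the 6 was -0.12, and that of all tested genes was 0.009.

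**Figure D1:**
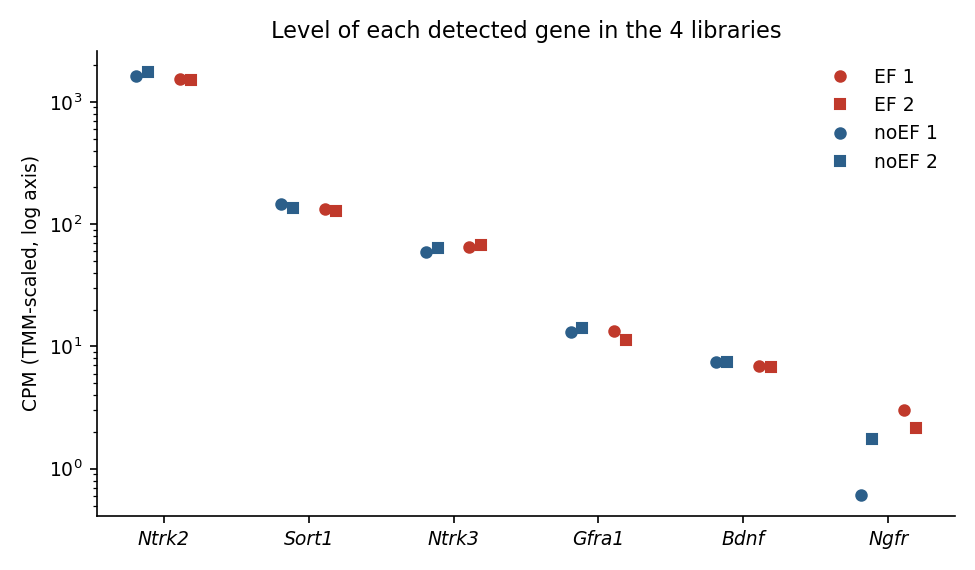
Level of the 6 detected genes (x axis) in CPM (y axis, log scale), with 1 point per library, blue for noEF and red for EF, circles for replicate 1 and squares for replicate 2. The genes span from 0.615 CPM for Ngfr in noEF 1 to 1759 CPM for Ntrk2 in noEF 2, and apart from Ngfr the libraries of a gene lie close together.

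The ligand genes were low or undetected. Bdnf (ENSMUSG00000048482, GRCm38 chromosome 2, 109674700 to 109727007, plus strand) was at 6.86 and 6.82 CPM in EF libraries 1 and 2 and 7.44 and 7.52 CPM in noEF libraries 1 and 2, from 238 to 253 counts per library. The replicates lay close together, and both EF libraries were below both noEF libraries. Its log2 fold change was -0.13 (SE 0.22, 95% interval -0.59 to 0.33, edgeR adjusted p = 0.78), which allows a change between 0.665-fold and 1.26-fold. Exons of Bdnf overlap the antisense gene Gm45346 over 896 bases, and the protocol describes no step that keeps the strand. The same limit holds for Gfra1 (Gm16277, 416 bases) and Sort1 (Gm12523, 338 bases). Among genes called further below, Sdc3 overlaps Gm26716 over 415 bases and Mef2a overlaps Lysmd4 over 302 bases, each on the opposite strand. Ntf3, the gene of NT-3, and Gdnf had 0 counts in each library, which allows up to 3 counts, or 0.0840 to 0.0922 CPM, as a limit of counting error alone. Outside the group, Ntf5, which encodes neurotrophin-4, had 0 counts throughout.

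Ntrk2 was the most abundant of the 8. Its gene (ENSMUSG00000055254, chromosome 13, 58806569 to 59133970, plus strand) encodes TrkB, and its level was 1547 and 1498 CPM in EF libraries 1 and 2 and 1640.1 and 1759 CPM in noEF libraries 1 and 2. This placed it between rank 42 and rank 53 of the 14263 tested genes in each library. Both EF libraries were below both noEF libraries, and the means were 1522 ± 34.6 and 1699 ± 83.8 CPM (SD, n = 2 each). The log2 fold change was -0.16 (SE 0.08, 95% interval -0.33 to 0.01), and the edgeR adjusted p was 0.239. When each library's trend with gene length and GC content was removed the difference grew to -0.26. There edgeR called it (adjusted p = 0.0193, with 10.9% of all tested genes called). With the replicate number as a block in that fit it was not called (edgeR adjusted p = 0.101). Replicate numbers follow the sample titles, and the labels name no source shared by libraries of 1 number. The block thus cannot decide whether the call holds. The length used for this gene differs between 19292 bases for all its exons and 8744 bases for its longest transcript, and with the second the fit gave -0.27 (edgeR adjusted p = 0.00754, 10.5% of tested genes called). It was called in 2 of its 14 alternatives, with log2 fold changes from -0.27 to -0.07 and adjusted p-values from 0.00754 to 0.623.

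Some astrocyte genes were called lower in EF, whereas Ntrk2 was lower without a call in the fit to all 4 libraries (edgeR adjusted p = 0.239). In a list of 6 astrocyte markers 4 were lower in EF (Gfap, Aqp4, Aldoc and Gja1) and 0 higher, and their summed level was 2223 to 2234 CPM in EF and 3276 to 3350 CPM in noEF. Gfap, the filament protein of astrocytes, was at 237 and 241 CPM in EF and 641 and 671 CPM in noEF. Slc1a2 and S100b of that list had overlapping groups, at log2 fold changes of -0.08 and -0.02 (edgeR adjusted p = 0.631 and 0.926). In bulk RNA fewer cells of a type cannot be told apart from less RNA per cell, and the part of astrocyte content in the Ntrk2 values was not tested. Of 6 neural stem cell genes edgeR called 1 lower (Fabp7), limma-voom called 1, and DESeq2 called 3 (Fabp7, Sox2 and Vim). In edgeR Sox2 and Vim were at log2 fold changes of -0.27 and -0.22 (adjusted p = 0.0597 and 0.0851). Hes5 was at -0.37, and Nes and Pax6 were at 0.14 and 0.12, without a call. Of 5 tested oligodendrocyte lineage genes edgeR called 1 lower (Pdgfra). Of 5 tested neuronal genes edgeR, DESeq2 and limma-voom called 0, with 1 (Syt1) at an unadjusted p under 0.05.

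Ntrk3, which encodes the NT-3 receptor TrkC (ENSMUSG00000059146, chromosome 7, 78175959 to 78738012, minus strand), was at 65.3 and 67.2 CPM in EF libraries 1 and 2 and 58.8 and 63.5 CPM in noEF libraries 1 and 2. Both EF libraries were above both noEF libraries, but EF 1 was nearer to noEF 2 than the noEF libraries were to each other. The log2 fold change was 0.12 (SE 0.10, 95% interval -0.10 to 0.33, edgeR adjusted p = 0.535). Its sign did not hold: with the length and GC trend removed it was -0.02.

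Ngfr, the p75 gene (ENSMUSG00000000120, chromosome 11, 95568818 to 95587735, minus strand), was the lowest of the 6 detected genes and the most variable. It had 108 and 75 counts in EF and 20 and 59 in noEF, or 3.03, 2.15, 0.615 and 1.75 CPM. Both EF libraries were above both noEF libraries, but noEF 1 stood apart: noEF 2 was 2.85-fold above noEF 1, while EF 2 was 1.22-fold above noEF 2. The log2 fold change was 1.12 (SE 0.52, 95% interval 0.00 to 2.24, edgeR adjusted p = 0.209). Without noEF 2 the log2 fold change was 2.06 and edgeR called it (adjusted p = 0.0203, with 12.6% of tested genes called), without noEF 1 it was 0.56 (adjusted p = 0.668), without EF 1 0.86 (adjusted p = 0.605) and without EF 2 1.35 (adjusted p = 0.191). In the fits that leave out a library the lone library of a group is assumed to vary like the other group. Among 1714 tested genes of a mean level similar to that of Ngfr (within a factor of 2), 84 (4.90%) had noEF libraries at least as far apart.

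Markers of other cells that carry p75 were mixed. Of 6 Schwann cell and neural crest genes, Foxd3 and Tfap2a had 0 counts in all libraries, and Erbb3 was at most 0.373 CPM. Cdh19, a cadherin gene of that list, was well detected, at 30.8 and 25.2 CPM in EF and 26.9 and 28.5 CPM in noEF, with overlapping groups (edgeR adjusted p = 0.962). Gap43, a growth cone gene that neurons also express, was at 136 CPM in both EF libraries and 131 and 125 CPM in noEF (edgeR adjusted p = 0.575). The summed level of that list was 162 to 167 CPM in EF and 154 to 158 CPM in noEF, nearly all of it from Gap43 and Cdh19. Of 6 fibroblast and mural genes 3 were tested and 1 was called, Acta2, which was higher in EF (8.68 and 4.84 against 3.13 and 2.88 CPM), and it made up most of their summed level of 5.36 to 9.33 CPM in EF and 3.42 to 3.87 CPM in noEF. Pdgfrb, a pericyte gene, went the other way, with 0 counts in both EF libraries and 10 and 13 counts in noEF, and was not called (edgeR adjusted p = 0.0912). The part of such cells in the Ngfr values was not tested.

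Of 10610 tested genes with a mean of at least 5 CPM, the 3 whose centred log2 levels over the 4 libraries lay nearest to those of Ngfr were C2cd5, Raver1 and Vcl (root mean square differences of 0.155, 0.164 and 0.188). C2cd5 was at 9.94 and 8.77 CPM in EF and 2.09 and 7.34 CPM in noEF, and Raver1 at 49.7 and 45.7 against 10.3 and 35.7 CPM. Each shares the low value in noEF 1. With 4 libraries this is a description of those libraries alone.

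**Figure D2:**
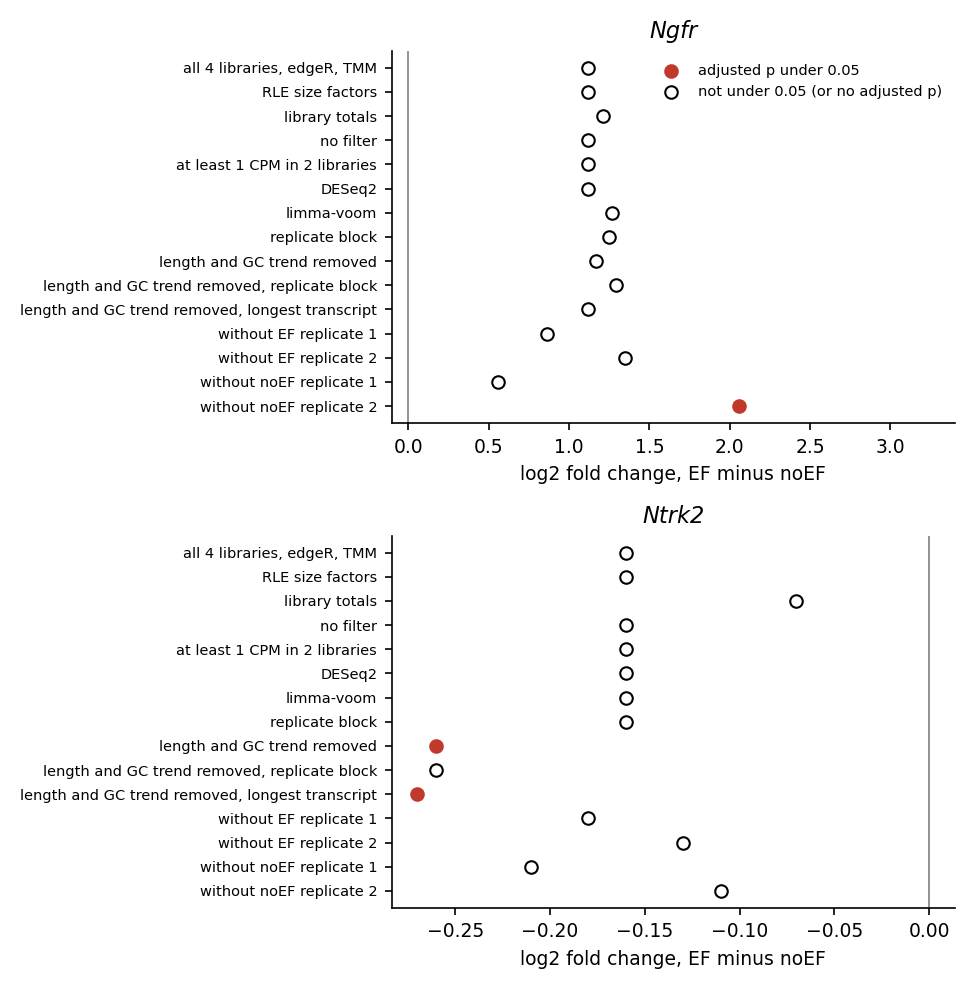
Log2 fold change (x axis, EF minus noEF) of Ngfr (top) and Ntrk2 (bottom) under the main edgeR fit (all 4 libraries, TMM) and each of 14 alternatives (y axis). Filled points had an adjusted p under 0.05, and open points did not or had none. Ngfr was called in the fit without noEF 2 and Ntrk2 in the 2 fits that removed the length and GC trend without a block.

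Sort1, the gene of sortilin (ENSMUSG00000068747, chromosome 3, 108284082 to 108361511, plus strand), was the second most abundant, at 134 and 129 CPM in EF libraries 1 and 2 and 145 and 137 CPM in noEF libraries 1 and 2. The EF libraries were below the noEF libraries, though EF 1 and noEF 2 were close. The log2 fold change was -0.10 (SE 0.09, 95% interval -0.28 to 0.08, edgeR adjusted p = 0.535), so a fall beyond 0.823-fold lay outside the interval. Sortilin is the partner of p75 in binding neurotrophin precursors, and per length its transcripts exceeded those of Ngfr 20.2-fold and 27.3-fold in EF and 107-fold and 35.4-fold in noEF. The highest of these ratios was that of noEF 1, the library with 20 Ngfr counts. None of the 6 tested genes in the list of other neurotrophins and receptors was called, and 0 had an unadjusted p under 0.05 by edgeR, DESeq2 or limma-voom. Of the sorting receptor genes in it, Sorcs2 was at 143 and 142 CPM in EF and 137 and 136 CPM in noEF, and Sorl1 at 22.8 to 26.8 CPM over the 4 libraries. The others varied between replicates: Sorcs1 was at 66.2 and 20.0 CPM in EF and 53.2 and 53.4 CPM in noEF (log2 fold change -0.31, 95% interval -3.5 to 2.88). Sorcs3 was at 1.62 and 1.43 CPM in EF and 0.645 and 1.78 CPM in noEF, with its lowest value, like that of Ngfr, in noEF 1.

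Gfra1, the gene of the GDNF co-receptor (ENSMUSG00000025089, chromosome 19, 58235604 to 58455909, minus strand), was at 13.4 and 11.2 CPM in EF libraries 1 and 2 and 13.2 and 14.1 CPM in noEF libraries 1 and 2. The groups overlapped, with EF 1 between the noEF libraries. The log2 fold change was -0.14 (SE 0.18, 95% interval -0.52 to 0.23, edgeR adjusted p = 0.681). Its signalling partner Ret had 0 to 0.280 CPM, while the alternative partner Ncam1 was at 245 to 269 CPM. Gfra2, the neurturin co-receptor gene, was at 27.9 and 25.8 CPM in EF and 23.8 and 22.0 CPM in noEF (log2 fold change 0.23, edgeR adjusted p = 0.350).

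**Figure D3:**
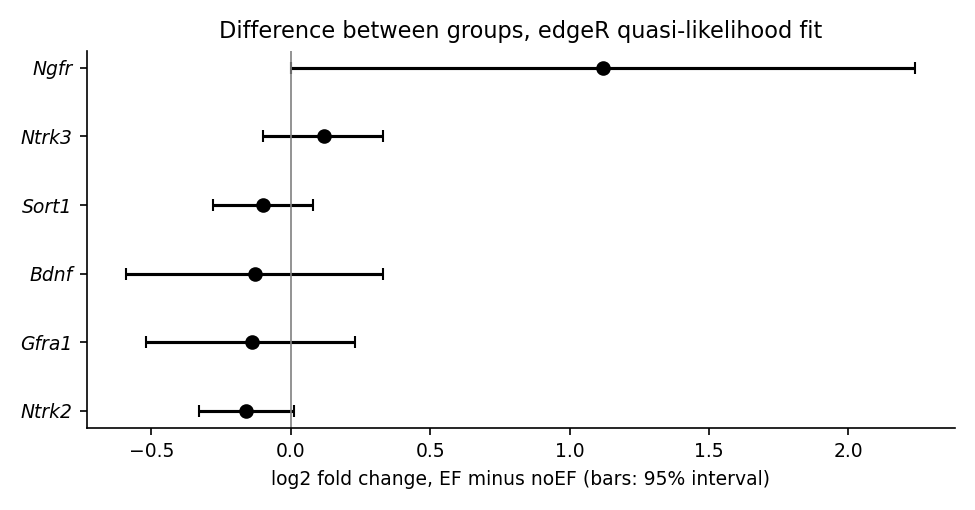
Log2 fold change of each of the 6 tested genes (x axis, EF minus noEF; points) with its 95% interval (bars) from the edgeR fit. The intervals of Ntrk2 (-0.33 to 0.01), Sort1 and Ntrk3 are narrow, and that of Ngfr runs from 0.00 to 2.24.

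Levels were set against each other per kilobase of exon, as CPM per kb over all 4 libraries (mean ± SD, n = 4). Ntrk2 led at 83.5 ± 5.95, followed by Sort1 at 18.0 ± 0.889, Gfra1 at 2.37 ± 0.227, Ntrk3 at 2.11 ± 0.119, Bdnf at 1.15 ± 0.0596 and Ngfr at 0.547 ± 0.290. The order of Gfra1 and Ntrk3 turned when the longest transcript was used as the length (2.80 and 3.23), and these neighbours are not separable; the other positions stayed. Ntrk2 exceeded Bdnf by 72.6-fold and 70.8-fold in EF and 71.1-fold and 75.3-fold in noEF, so the groups overlapped. These ratios depend on the length chosen, and with the longest transcript they were 107 to 114 over the 4 libraries. Over Ntrk3 the ratio was 37.0 and 34.9 in EF and 43.6 and 43.3 in noEF, without overlap, and no test was made of it. With the longest transcript it was 53.4 and 50.2 in EF and 62.9 and 62.4 in noEF.

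The other genes of the pathway were read from 9 lists by role, with 103 genes of which 94 were tested. 8 were higher and 3 lower in EF, 11.7% of those tested beside 8.82% of all tested genes. Counts of single lists below stand beside the same 8.82%, each from 6 to 18 tested genes. Without EF 1 the counts were 2 higher and 3 lower, without EF 2 they were 4 and 2, without noEF 1 4 and 3, and without noEF 2 11 and 6. With the length and GC trend removed 5 were higher and 6 lower.

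Among genes that process the precursors, Cpe fell, and 5 others of the 6 tested, Furin and Pcsk6 among them, were not called. Cpe, a carboxypeptidase that also helps to sort the BDNF precursor into secretory granules, was at 2738 and 2902 CPM in EF and 4158 and 4456 CPM in noEF. It was called in each of 14 alternatives beside the main value of -0.61 on the log2 scale (edgeR adjusted p = 0.000281, SE 0.08), from -0.66 to -0.52. Furin, which cleaves the precursors inside the cell, was at 0.27 (edgeR adjusted p = 0.350), and the extracellular protease gene Plat was at 557 and 535 against 529 and 552 CPM.

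Of 15 genes of p75 partners and the proteases that cut p75, 2 were called higher and 0 lower in EF. This is 13.3% beside 8.82% of all tested genes. Tnfrsf19 encodes TROY, a receptor related to p75 that can take its place beside Lingo1 and the Nogo receptor. It was at 113 and 103 CPM in EF and 77.8 and 75.5 CPM in noEF (log2 fold change 0.50, SE 0.09, edgeR adjusted p = 0.00412) and was called in all 14 alternatives. Adam10, a membrane protease, rose by 0.30 (edgeR adjusted p = 0.0458) but was called in 7 of 14 alternatives and missed the threshold without EF 1 (adjusted p = 0.315), without EF 2 (adjusted p = 0.059) and without noEF 1 (adjusted p = 0.203). Lingo1, Rtn4r and Rtn4, which encode the p75 co-receptor LINGO-1, the Nogo receptor and Nogo, were at -0.28, -0.79 and -0.21 and were not called (edgeR adjusted p = 0.0989, 0.116 and 0.129). Bex3 was at -0.24 without a call (edgeR adjusted p = 0.155). Each of these lower genes had an unadjusted p under 0.05 by edgeR, DESeq2 and limma-voom.

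None of the 18 Trk adaptor genes was called in the main edgeR fit, by DESeq2 or by limma-voom. Each of these gave 3 at an unadjusted p under 0.05 (Gipc1, Ptpn11 and Shc4). Kidins220, the scaffold that binds Trk receptors, was at 250.3 and 238 CPM in EF and 232 and 256 CPM in noEF, with overlapping groups. Shc4, an adaptor of the Shc family, had the smallest p, at 83.4 and 84.1 against 65.9 and 69.6 CPM (log2 fold change 0.31, edgeR adjusted p = 0.0573). Its exons overlap the abundant gene Eid1 on the opposite strand over 527 bases.

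In the GDNF family list 1 of 8 tested genes rose. Sdc3, a syndecan that binds GDNF on the cell surface, was at 430 and 381 CPM in EF and 322 and 320.1 CPM in noEF (log2 fold change 0.34, edgeR adjusted p = 0.0244; adjusted p = 0.302 without EF 1). Lrig1, which restrains Ret and Trk receptors, was at 573 and 529.5 against 481 and 505 CPM and was not called (edgeR adjusted p = 0.246). Of 10 regulators of the Bdnf gene Mef2a rose by 0.40 (edgeR adjusted p = 0.034) and the call was lost without EF 1, EF 2 or noEF 1 (adjusted p = 0.124, 0.0939 and 0.237). Creb1, the gene of CREB, was at 0.25 (edgeR adjusted p = 0.232) and Npas4 at 0.06 (edgeR adjusted p = 0.816). Of 8 transcripts that growth factors induce, Dusp6, an ERK phosphatase, rose by 0.59 (edgeR adjusted p = 0.0173; adjusted p = 0.137 without EF 2), and Fos, an immediate early gene, was at -0.23 without a call (edgeR adjusted p = 0.0798). DESeq2 called Fos lower (adjusted p = 0.0266), as did edgeR with no filter (adjusted p = 0.0496), and its adjusted p ranged from 0.0266 to 0.502 over 14 alternatives. Arc and Vgf, which BDNF induces in neurons, were at -0.15 and -0.62 without a call (edgeR adjusted p = 0.507 and 0.103).

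Trophic factors outside the neurotrophin and GDNF families moved in both directions, with 1 of 7 tested genes higher and 2 lower. Ptn, which encodes the heparin-binding factor pleiotrophin, was at 2759 and 2712 CPM in EF and 2146 and 2246 CPM in noEF. Its log2 fold change was 0.32 (edgeR adjusted p = 0.0195), and it was not called without EF 1, EF 2 or noEF 1 (adjusted p = 0.207, 0.0929 and 0.0708). Cntf fell from 10.1 and 13.0 to 4.06 and 4.47 CPM (log2 fold change -1.43, SE 0.22, edgeR adjusted p = 0.00117), also in all 14 alternatives, and its exons share 847 bases with Zfp91 on the same strand. Lif was at 3.59 and 3.35 against 5.87 and 7.23 CPM (log2 fold change -0.92, edgeR adjusted p = 0.0466) and was called in 6 of 14 alternatives, not by DESeq2 (adjusted p = 0.0829) or limma-voom (adjusted p = 0.0582), nor without EF 1, EF 2 or noEF 2 (adjusted p = 0.128, 0.124 and 0.17).

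**Figure D4:**
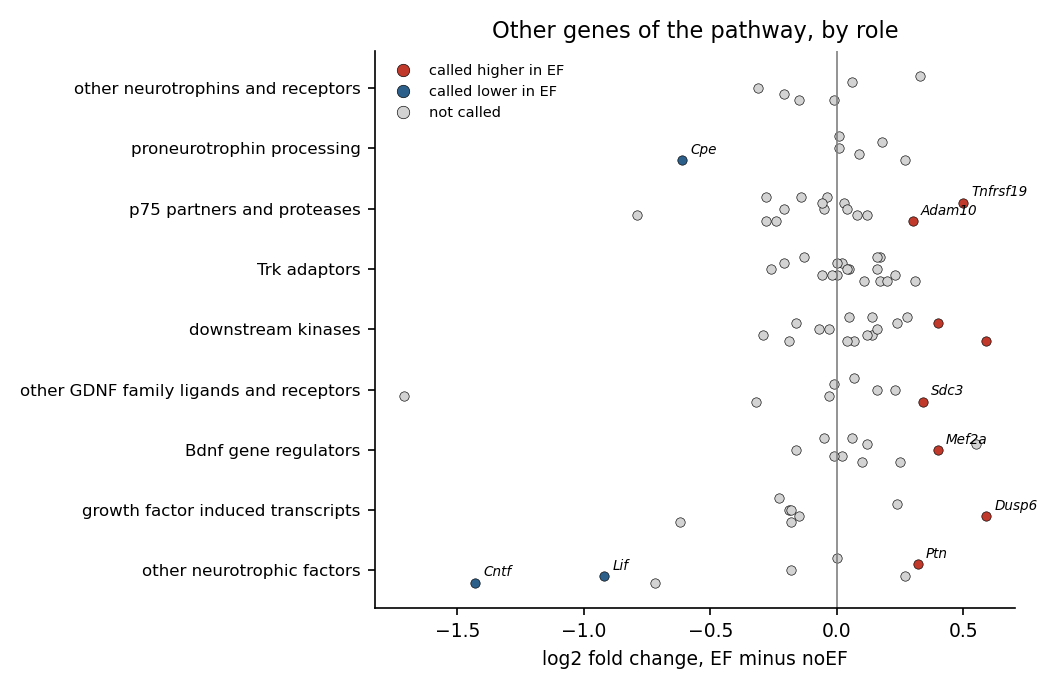
Log2 fold change (x axis, EF minus noEF) of the 94 tested genes of the 9 pathway lists (y axis), 1 point per gene, red where called higher in EF (not every called gene is labelled), blue where called lower and grey where not called. Cntf, Lif and Cpe are the 3 blue points, and the 8 red points lie between 0.30 and 0.59.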

How the data were processed

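RNA was sequenced from engineered neural tissue in 2 EF and 2 noEF libraries, grouped and numbered by sample title; columns were matched by library name. The deposited table holds unscaled whole-number counts per gene, as read from the values. Tools named, per the submitters' processing notes, are HISAT2 2.0.4, StringTie 2.2.1 and DESeq2 1.44.0, with the build GRCm38 and no role or order. Not given in the sources used here were how reads were counted, the annotation and the strandedness.

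Counts were tested in edgeR 4.0.16 (R 4.3.3): filterByExpr (minimum count 10, minimum total 15), TMM scaling, robust quasi-likelihood F test, two-sided, Benjamini-Hochberg adjustment over 14263 genes. The standard error is the log2 fold change over the square root of F, and 95% intervals use the fit's degrees of freedom. The procedure was tested on simulated counts. With 2 libraries against 2 an exact permutation test cannot go below p = 0.333, so none was used. Replicates differed beyond sampling noise (chi-square of counts over degrees of freedom 18.7 in EF, 19.8 in noEF). Counting limits cover counting error only, and PCR copies add to it.

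Alternatives were RLE factors, library totals, no filter, 1 CPM in 2 libraries, DESeq2 1.42.0, limma-voom (limma 3.58.1), a replicate block, each library left out, and the length and GC trend removed per library (natural splines with 5 degrees of freedom per term, GENCODE M21), also with the block; the longest transcript in that trend was added after the data were seen. Named genes are the 8 genes, every called gene of the pathway lists, in each list also the 2 of smallest p, and, as no member was called, the 3 genes nearest to the member with the smallest p; other pathway genes named were added after their values were seen. Some genes that this rule names are not reported here. The members and lists were chosen with earlier results of these data known. Promoter windows came from RefSeq and were cut where an exon of the gene began.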

Additional observations from a re-analysis of the deposited data

How the results depend on the processing

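Of the 8 genes, 0 were called higher and 0 lower in 11 of 14 alternatives. With the length and GC trend removed 1 was lower, whether lengths were of all exons or of the longest transcript, and leaving out each library in turn gave 0 to 1 higher and 0 lower. Ntrk3 turned from 0.12 to -0.02 in the 3 fits with that trend removed, and Nradd from -0.21 to 0.07 in the one with the longest transcript; the cause was not tested. Of the pathway genes 8 were higher and 3 lower, against 4 and 2 with the replicate block, 5 and 6 with the trend removed (6 and 6 with the longest transcript), 2 and 3 with trend and block, 9 and 5 with no filter, and 2 to 11 and 2 to 6 with a library left out. Over all genes 546 were higher and 712 lower, against 1138 and 505 with library totals, 915 and 1203 with no filter, 319 and 440 with trend and block, and 217 to 790 and 337 to 1065 with a library left out. Higher genes were thus the larger share of calls with library totals and the smaller share with TMM, but among the 8 genes none was called under either. The replicate block alone gave 410 and 568 calls over all genes, and Ntrk2 and Ngfr were not called in it (adjusted p = 0.465 and 0.190). Deviations of EF 1 and noEF 1 from their group means correlated at r = -0.0898 over 14263 genes. That value cannot tell whether libraries of 1 number were paired, because each group gives only a single difference per gene. The labels name no shared source. Levels per kb rose with the longest transcript in place of all exons to 184 for Ntrk2, 19.9 for Sort1, 3.23 for Ntrk3, 2.80 for Gfra1 and 1.68 for Bdnf. Ngfr rests on 20 to 108 counts per library. By counting error alone, 0 counts of Ntf3 or Gdnf in a library allow a level of up to 0.084 to 0.0922 CPM there.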
